A study of Rattus norvegicus with 6 samples.

Results

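A group of 10 genes of sodium uptake through the epithelial sodium channel (ENaC) and of the corticosteroid response was followed in kidneys of congenic and Dahl S rats. They are the 3 ENaC subunit genes Scnn1a, Scnn1b and Scnn1g, the kinase gene Sgk1, the ubiquitin ligase gene Nedd4l, the receptor genes Nr3c2 and Nr3c1, the enzyme gene Hsd11b2 and the hormone-responsive genes Tsc22d3 and Fkbp5. All probe sets that the platform annotation assigns to one of these symbols were taken, which gave 14 of the 31042 probe sets on the array, for 10 of 14217 named genes. The congenic rats have a piece of chromosome 9 from R rats in an otherwise Dahl S genome, and the Dahl salt-sensitive (S) rats are the parental strain. In the RefSeq table for the rat assembly GRCr8, none of the 10 genes lies on chromosome 9. Each strain was represented by 6 males, weaned at 30 days, fed 2% salt and killed at 53 days, whose whole kidney RNA was pooled from 2 rats at a time, so 3 congenic and 3 S pools were each hybridised to 1 Affymetrix Rat 230 2.0 array. All rats of both strains received the salt-rich diet and were born on the same day. Rats without that diet, or with hormone added or removed, were not analysed here.

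ENaC is the apical sodium channel of the late distal tubule and collecting duct, where it takes up sodium under the control of aldosterone. Aldosterone acts through the mineralocorticoid receptor, encoded by Nr3c2, which also binds glucocorticoids, and the enzyme made from Hsd11b2 inactivates glucocorticoids in these cells so that aldosterone can occupy the receptor. The receptor induces Sgk1, whose kinase phosphorylates the ligase Nedd4-2 (from Nedd4l) and so reduces removal of ENaC from the membrane. Tsc22d3 (GILZ) and Fkbp5 are induced by corticosteroids in many tissues, Tsc22d3 in the collecting duct also by aldosterone. Sodium retention by this pathway raises blood pressure, and the title of the series places a blood pressure locus in the congenic segment. The comparison asks whether transcripts of the pathway differ between the strains.

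The promoters of Tsc22d3, Sgk1 and Fkbp5 are shown because these 3 hormone-responsive genes were lowest on the same array. Each sequence is the 250 bases before the gene's start site (for Tsc22d3 and Sgk1, the start furthest downstream of the 3 in the table), 5′ to 3′, from RefSeq on GRCr8. All 3 lie on the minus strand: Tsc22d3 at chrX:109010035-109010284, Sgk1 at chr1:24804832-24805081 and Fkbp5 at chr20:6543556-6543805. Capitals mark the TATA box TATAAA, the GC box GGGCGG and the CCAAT box CCAAT, each searched on both strands.
Tsc22d3: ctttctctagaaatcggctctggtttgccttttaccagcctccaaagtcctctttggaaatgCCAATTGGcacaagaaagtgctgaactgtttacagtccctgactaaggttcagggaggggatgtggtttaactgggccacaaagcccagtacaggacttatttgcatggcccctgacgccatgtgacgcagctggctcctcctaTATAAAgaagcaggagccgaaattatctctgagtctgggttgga
Sgk1: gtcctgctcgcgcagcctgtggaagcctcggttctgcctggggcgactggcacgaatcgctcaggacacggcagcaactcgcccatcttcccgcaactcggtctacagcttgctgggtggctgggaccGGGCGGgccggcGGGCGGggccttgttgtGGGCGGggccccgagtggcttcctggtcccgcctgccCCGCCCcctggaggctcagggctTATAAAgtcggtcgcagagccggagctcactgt
Fkbp5: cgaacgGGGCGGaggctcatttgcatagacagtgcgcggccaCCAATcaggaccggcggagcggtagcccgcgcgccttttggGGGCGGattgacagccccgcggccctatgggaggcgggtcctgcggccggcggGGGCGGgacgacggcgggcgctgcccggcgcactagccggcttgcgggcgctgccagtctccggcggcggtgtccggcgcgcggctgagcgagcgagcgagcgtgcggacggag
The Tsc22d3 window holds 1 TATA box, 44 bases before the start, and a pair of overlapping CCAAT boxes on opposite strands. The Sgk1 window holds 1 TATA box, 33 bases before the start, and 4 GC boxes. The Fkbp5 window holds 3 GC boxes and 1 CCAAT box. The table has 12 windows for 7 of the 10 genes. Of all 33469 windows of this length, 12.9% hold a TATA box, 30.5% a GC box and 34% a CCAAT box, against 3, 10 and 3 of the 12. Counted by gene these were 2, 7 and 3 of the 7, since some genes have several windows. The half-site of the glucocorticoid response element, AGAACA on either strand, was in 0 of the 12 windows and in 17.5% of all windows. These counts describe letters in 250 bases only.

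The signals are MAS5 values on a linear scale, and a fold change is the difference of log2(signal + 16), congenic minus S, which understates the change of dim probe sets. Of the 14 probe sets 12 passed the filter, a mean signal of about 25.6 over the 6 arrays, and at least 1 probe set of each gene was among them. With limma over 18625 probe sets, 0 of the 12 had an adjusted p under 0.05, where the share over all probe sets was 0%. An unadjusted p under 0.05 was found for 2 of the 12, Tsc22d3 and Nr3c1, beside 6.61% of all tested probe sets. The groups did not overlap for 1 of the 12, Nr3c1, beside 12.5% of all. Over the 10 genes, each by its brightest probe set, 4 had a positive and 6 a negative log2 fold change with a median of -0.033, and the median over 10658 tested genes was -0.0068. The pools come from separate rats, so the spread between arrays includes differences between rats, reduced by pooling.

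Before single genes, 3 arrays need description. S replicate 1 had the highest ratio of the 3′ to the 5′ actin probe set. The ratio increases as RNA degrades. It was 6.15, 6.64 and 7.17 on the congenic arrays and 9.42, 8.13 and 6.54 on the S arrays. The 7 liver markers summed to a signal of 9369 on congenic replicate 1 and to 108 to 186 on the other 5 arrays, where Apob lay between 0.765 and 7.74. The 5 measured of 7 adrenal markers summed to 5506 on congenic replicate 3 and to 128 to 142 on the other arrays, where Star, needed for cholesterol import in steroid synthesis, lay between 9.13 and 15.6. Kidney markers were present on every array, for example Umod of the thick ascending limb at 6589 to 7010.0 on the congenic arrays and 6576 to 6774 on the S arrays.

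Tsc22d3 had the largest difference of the 12 probe sets. Its signal was 1278, 1584 and 1369 in the congenic pools, against 817, 1061 and 1343 in the S pools. Both strains overlap, since S replicate 3 lay above congenic replicate 1, and S replicate 1 was the lowest of the 6. The means were 1410.2 ± 157 in congenic and 1074 ± 263 in S kidneys (SD, n = 3 each), a ratio of 1.31. The log2 fold change was 0.41 (SE 0.15, 95% interval 0.079 to 0.74), with a limma unadjusted p of 0.0200 and an adjusted p of 0.743. Leaving out S replicate 1, whose actin ratio was 9.42, gave 0.23 with an unadjusted limma p of 0.0697, and the part of RNA integrity in this difference was not tested. Without congenic replicates 1 and 3, the arrays with liver and adrenal transcripts, it was 0.58 from the remaining congenic array.

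Fkbp5 encodes a co-chaperone that lowers the hormone affinity of the glucocorticoid receptor and is itself induced by that receptor. Its brighter probe set measured 240.3, 254 and 204 in the congenic pools, against 164, 222 and 292 in the S pools. The S pools hold both the lowest and the highest value. Its log2 fold change was 0.070 (95% interval -0.30 to 0.44), and -0.13 without S replicate 1. The dimmer probe set measured 105, 105 and 104 in the congenic pools, against 76.7, 82.8 and 117 in the S pools, with a log2 fold change of 0.18 (95% interval -0.11 to 0.47). That value was 0.079 without S replicate 1 and 0.34 without S replicate 3, which had an unadjusted limma p of 0.00875. The congenic pools lay within 1.51 signal units of each other, inside the range of the S pools.

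**Figure D1:**
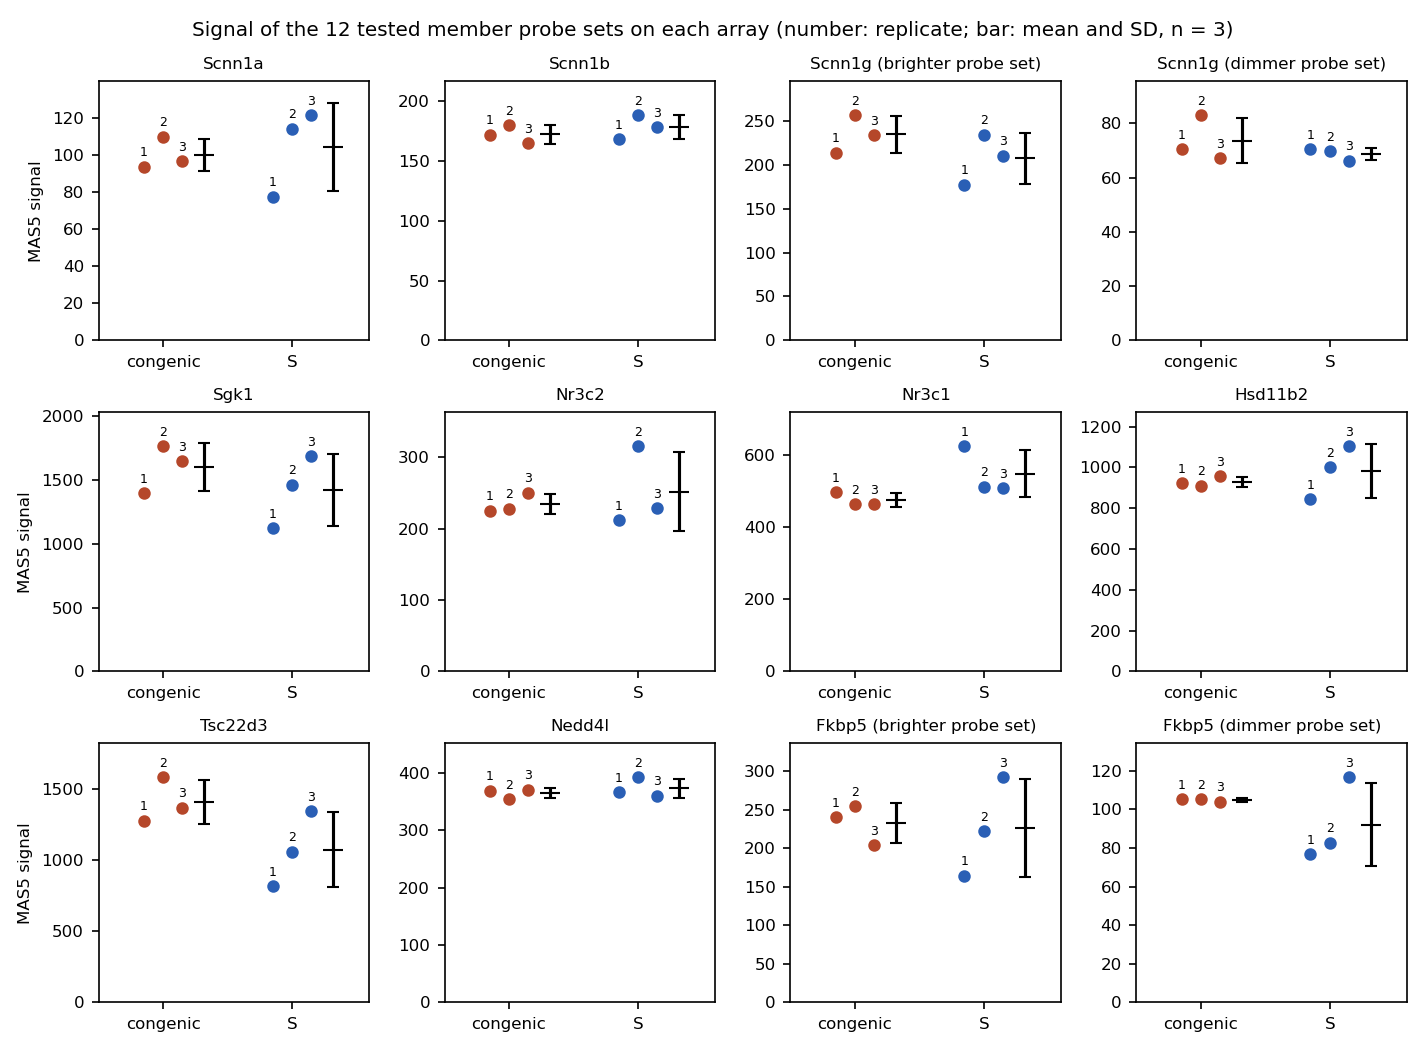
MAS5 signal (vertical axes, linear, starting at 0) of the 12 tested probe sets on the 3 congenic (left) and 3 S arrays (right of each panel); points carry the replicate number and bars give mean and SD (n = 3). Nr3c1 is the panel in which the strains do not overlap, and S replicate 1 is the lowest point in 8 of the 12 panels.

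Sgk1, the aldosterone-induced kinase gene, measured 1396, 1763 and 1645 in the congenic pools, against 1119, 1463 and 1684 in the S pools. As for Tsc22d3, S replicate 1 was lowest and congenic replicate 2 highest, while the other 4 arrays interleaved. The means were 1602 ± 187 in congenic and 1422 ± 285 in S kidneys (SD, n = 3 each), with a log2 fold change of 0.18 (95% interval -0.11 to 0.48) and a limma adjusted p of 0.812. Without S replicate 1 the log2 fold change was 0.022, and without S replicate 3 it was 0.31. Nedd4l, the ligase gene downstream of the kinase, had the narrowest log2 range of the 12 probe sets. It measured 369, 354 and 371 in the congenic pools, against 367, 392 and 359.7 in the S pools. Its log2 fold change was -0.031, with a 95% interval of -0.18 to 0.12.

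Nr3c1, the glucocorticoid receptor gene, was the member with separate groups. Its signal was 496, 462 and 463 in the congenic pools, against 623, 512 and 508 in the S pools. Every congenic pool lay below every S pool, with a gap of 11.7 signal units between the nearest arrays, and S replicate 1 was the highest. The means were 474 ± 19.1 in congenic and 548 ± 65.6 in S kidneys (SD, n = 3 each), a ratio of 0.865. The log2 fold change was -0.20 (SE 0.085, 95% interval -0.39 to -0.0072), with a limma unadjusted p of 0.0433 and an adjusted p of 0.750. Without S replicate 1 it was -0.10 with an unadjusted limma p of 0.168, and with congenic replicate 2 as the only congenic array it was -0.23. A second Nr3c1 probe set was below the filter, at 14.9 to 21.2 on the congenic and 8.25 to 16.9 on the S arrays, and gave no test.

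Nr3c2, the mineralocorticoid receptor gene, measured 225, 228 and 251 in the congenic pools, against 212, 316 and 229 in the S pools. One array, S replicate 2, lay above the rest, and the other 5 spanned 212 to 251. The log2 fold change was -0.079 (95% interval -0.36 to 0.21), and 0.084 without S replicate 2. Hsd11b2, whose enzyme guards this receptor from glucocorticoids, measured 922, 911 and 957 in the congenic pools, against 844, 1000.0 and 1104 in the S pools. The congenic pools lay inside the range of the S pools, with means of 930.0 ± 24.0 in congenic and 982 ± 131 in S kidneys (SD, n = 3 each). Its log2 fold change was -0.070 (95% interval -0.27 to 0.13). Without S replicate 1 it was -0.17, with an unadjusted limma p of 0.0268, and without S replicate 3 it was 0.017.

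The 3 ENaC subunit genes showed no difference beyond the spread between arrays. Scnn1a, which encodes the alpha subunit and is induced by aldosterone in the kidney, measured 93.7, 109.7 and 96.6 in the congenic pools, against 77.4, 114 and 121 in the S pools. The S pools again hold the lowest and the highest value, and the log2 fold change was -0.035 (95% interval -0.35 to 0.28), or -0.21 without S replicate 1. A second Scnn1a probe set was below the filter at 2.56 to 13.5 on the congenic and 4.16 to 22.6 on the S arrays. Scnn1b, the beta subunit gene, measured 172, 180.1 and 165 in the congenic pools, against 169, 188 and 178 in the S pools. Its groups interleaved, with a log2 fold change of -0.045 (95% interval -0.22 to 0.13).

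Scnn1g, the gamma subunit gene, had 2 tested probe sets. The brighter measured 214, 256 and 234 in the congenic pools, against 177, 234 and 210.2 in the S pools. Its log2 fold change was 0.17 (95% interval -0.067 to 0.41, limma adjusted p = 0.792), 0.071 without S replicate 1 and 0.26 without S replicate 2. The dimmer measured 70.5, 83.0 and 67.2 in the congenic pools, against 70.5, 69.6 and 66.3 in the S pools, with a log2 fold change of 0.075 (95% interval -0.16 to 0.31). The direction of the dimmer set rests on congenic replicate 2, without which its log2 fold change was 0.00074. In whole kidney RNA a smaller number of cells that make a transcript and less transcript per cell cannot be told apart.

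**Figure D2:**
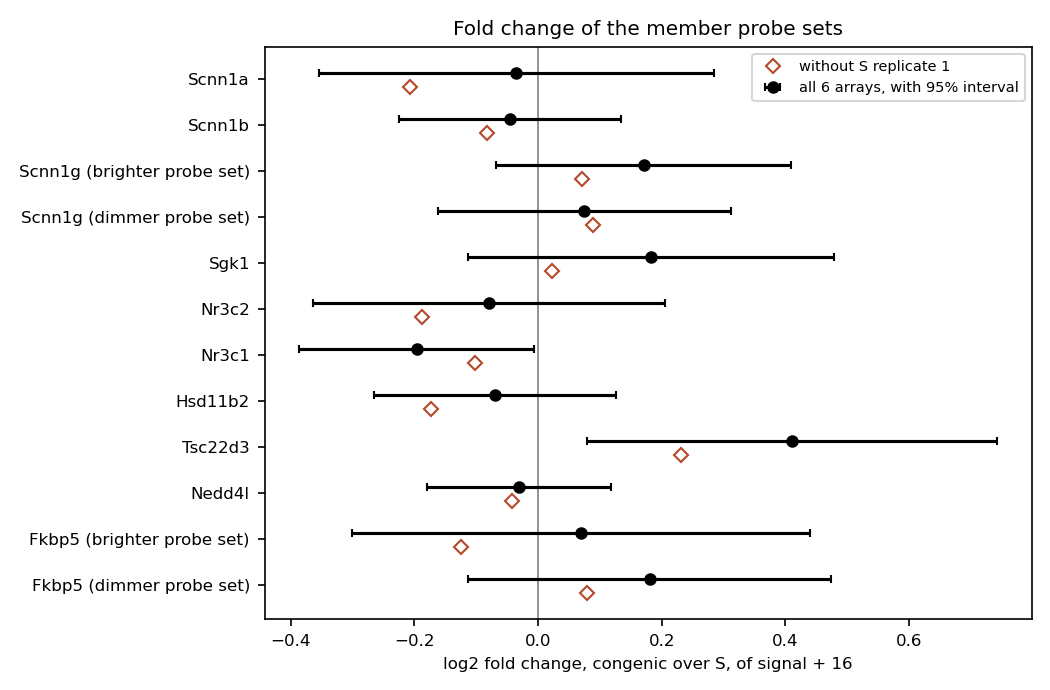
Log2 fold change, congenic over S, of signal + 16 (horizontal axis) for the 12 tested probe sets. Filled circles with bars give all 6 arrays with the 95% interval from limma, and open diamonds the value without S replicate 1. The intervals of Tsc22d3 and Nr3c1 do not reach 0, and both values are nearer to 0 without S replicate 1.

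The members varied more among S pools than among congenic pools. On the log2(signal + 16) scale the SD of the S arrays exceeded that of the congenic arrays for 11 of the 12 probe sets, with Scnn1g's dimmer set as the exception, beside 52.4% of all tested probe sets. The median SD was 0.092 among congenic and 0.23 among S arrays for the members, against 0.10 and 0.11 for all tested probe sets. Without S replicate 1, 6 of the 12 had the larger SD among S arrays, beside 40.4% of all. The median SD among the remaining S arrays was 0.10 for the members and 0.080 for all tested probe sets. That count sets 2 S arrays against 3 congenic arrays, and leaving out another S array was not tested for it.

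S replicate 1 was the lowest of the 6 arrays for 8 of the 12 probe sets, beside 22% of all tested probe sets. These were Scnn1a, the brighter set of Scnn1g, Sgk1, Nr3c2, Hsd11b2, Tsc22d3 and both sets of Fkbp5, which share genes and arrays and so are not independent. For Nr3c1 the same array was highest. Over the 10 genes its median deviation from the mean of the 6 arrays was -0.23 on the log2 scale, where the median over all tested probe sets was 0.0017. The other arrays had member medians of -0.035 to 0.069 among congenic and 0.077 to 0.083 among S pools. S replicate 1 was lowest and S replicate 3 highest of the 3 S pools for 6 of the 12, namely Scnn1a, Sgk1, Hsd11b2, Tsc22d3 and both sets of Fkbp5, beside 21.2% of all. The actin ratio was 9.42 on S replicate 1 and 6.54 on S replicate 3, the highest and the lowest of the S pools. Cell markers also differed on S replicate 1, as given below. The part of RNA integrity or cell content in the pattern was not tested.

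Other genes induced by corticosteroids showed the same array as lowest for 8 of 19 tested list members and as highest for 2, beside 22% and 21.4% of all tested probe sets. With limma 0 of the 19 reached an adjusted p under 0.05, and an unadjusted p under 0.05 was found for 0 higher and 2 lower in congenic kidneys, beside 3.09% and 3.53% of all tested probe sets. Their median log2 fold change was 0.038, and -0.015 without S replicate 1. The 2 lower genes were Mt1, a metallothionein gene that metals and glucocorticoids induce, with a log2 fold change of -0.31, and the transcription factor gene Klf9 at -0.19. Klf9 measured 1068, 1021 and 1108 in the congenic pools, against 1338, 1219 and 1097 in the S pools. Its groups overlapped, and S replicate 1 was the highest array. Mt1 measured 52.6, 45.4 and 42.6 in the congenic pools, against 63.0, 60.7 and 61.2 in the S pools, without overlap. Metallothionein genes are close copies of each other, so its probe set may also read others. Mt2A, a brighter metallothionein gene of the list, had means of 4564 in congenic and 4382 in S kidneys, with overlap. Its log2 fold change was 0.058, with an unadjusted limma p of 0.288. Nfkbia, the inhibitor of NF-kappa-B, had a log2 fold change of 0.19 with an unadjusted limma p of 0.0536.

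A pair of genes from this list, chosen after their values were seen, had wide ranges. The clock gene Per1, an early aldosterone target in the collecting duct, measured 220.3, 206 and 184 in the congenic pools, against 144, 229 and 248 in the S pools. S replicate 1 was lowest and S replicate 3 highest of the 6. Among the S pools the order was the opposite for Klf9, Errfi1 (1559, 1303 and 1279) and Pck1 (6414, 5726 and 5530). Bcl6, a transcriptional repressor, measured 844, 1259.5 and 411 in the congenic pools, against 384, 767 and 1172 in the S pools, a spread within each strain that exceeds the difference of the means. Its log2 fold change was 0.11 with a SE of 0.41.

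**Figure D3:**
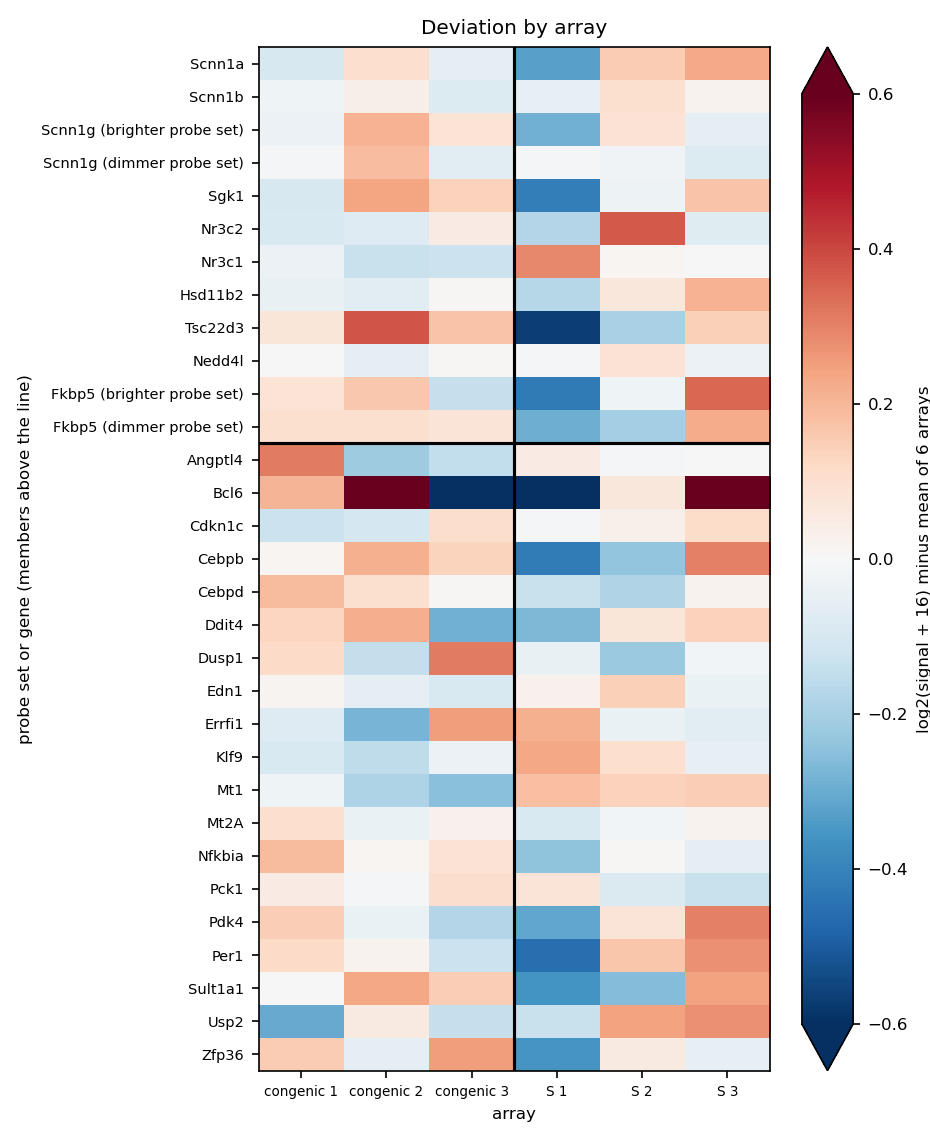
Deviation of log2(signal + 16) from the mean of the 6 arrays (colour, red above and blue below the mean, limited to ±0.6) for the 12 member probe sets (above the line) and the 19 tested corticosteroid-induced genes (below it), by array, congenic arrays left and S arrays right. S replicate 1 is blue for Tsc22d3, Sgk1, Fkbp5 and Per1 and red for Nr3c1 and Klf9.

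Genes whose products regulate ENaC showed small differences. Of 18 tested, 8 had a positive and 10 a negative log2 fold change with a median of -0.018, and 0 were at a limma unadjusted p under 0.05 or past the adjusted threshold, beside 6.61% and 0% of all tested probe sets. The 3 with the smallest p were Usp2, Mllt3 and Prss8. Usp2, a deubiquitinase gene of which one product acts on ENaC, had a log2 fold change of -0.26. Mllt3, whose product AF9 represses Scnn1a together with Dot1l until aldosterone acts, measured 89.7, 97.6 and 91.1 in the congenic pools, against 129, 109.2 and 96.8 in the S pools, and had a log2 fold change of -0.22. Prss8, the gene of prostasin, which cleaves the gamma subunit, had a log2 fold change of -0.11.

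A further list held chaperones and coregulators of the corticosteroid receptors and steroid-converting enzymes. Of its 8 tested genes 3 were at an unadjusted limma p under 0.05, all higher in congenic kidneys, and 0 passed the adjusted threshold. Over all tested probe sets 3.09% were at that p and higher. In the list 5 genes had a positive and 3 a negative log2 fold change. The 3 were the enzyme genes Hsd11b1 (-0.093) and H6pd (-0.060) and the corepressor gene Ncor1 (-0.012). Fkbp4, which carries the hormone-bound receptor toward the nucleus, measured 278, 291 and 273 in the congenic pools, against 177, 241 and 246 in the S pools, a log2 fold change of 0.34. Stip1 (Hop), which hands the receptor from Hsp70 to Hsp90, had a log2 fold change of 0.31, and Ptges3 (p23), which stabilises the Hsp90-receptor complex, of 0.23. The congenic and S arrays did not overlap for these 3 genes and for Hsp90ab1, which makes 4 of the 8, beside 12.5% of all tested probe sets. Hsp90ab1, the gene of an Hsp90 protein that holds the receptors ready for hormone, is on chromosome 9, the chromosome of the congenic segment, and is named after its values were seen. It measured 3219, 3122 and 3006 in the congenic pools, against 2745, 2985 and 2938 in the S pools, with a log2 fold change of 0.11 and a limma unadjusted p of 0.0618. Whether it lies within the segment was not analysed here. S replicate 1 was lowest for Fkbp4, Stip1 and Hsp90ab1 but not for Ptges3. Over the 8 tested genes that array was lowest for 4 and highest for 3, beside 22% and 21.4% of all tested probe sets. The median log2 fold change of the 8 was 0.090, and 0.048 without S replicate 1. Heat shock also induces chaperone genes of this kind, so they are not specific to steroid receptors.

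Markers of principal cells, the collecting duct cells that carry ENaC, were set beside the members. The 8 markers summed to signals of 5849.6, 7015 and 6149 on the congenic arrays, against 5205, 5194 and 5785 on the S arrays, so every congenic array lay above every S array. The water channels Aqp2 and Aqp3 make up most of that sum, with log2 fold changes of 0.23 and 0.43, whereas the principal cell transcription factor gene Elf5 had one of -0.40 and Gata3 of -0.11. Congenic replicate 2 had the highest sum. It was the highest array for 4 of the 12 member probe sets (Tsc22d3, Sgk1 and both sets of Scnn1g), beside 15.5% of all tested probe sets. It was the lowest for 2, Nr3c1 and Nedd4l, beside 14.3% of all. S replicate 3 was also the highest array for 4 of the 12, beside 15.9% of all. The 4 measured of 5 markers of the distal convoluted and connecting tubule, where ENaC is also made, summed to 1873, 1456 and 1217 on the congenic arrays, against 1352, 1840.3 and 1683 on the S arrays, with overlap. S replicate 1 differed in other cell markers. Its 4 measured of 5 intercalated cell markers summed to 998, against 1187 to 1321 on the other arrays. The 3 proximal tubule markers summed there to 11801, against 10394 to 10707 on the others. Its sums for principal cells, the distal convoluted and connecting tubule and the thick ascending limb lay within the range of the other arrays. The part of cell content in the values of these members was not tested.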

How the data were processed

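Per the submitters' processing notes, the deposited values are MAS5 signal intensities, which the authors made as 1 value per probe set from Rat 230 2.0 arrays; version, scaling target and detection calls are not given in the sources used here. Deposited intensities were linear and each array already had a 2% trimmed mean of 150.05, so a shift common to most transcripts cannot be seen. Arrays were grouped by the sample labels. The 57 control probe sets and 12417 probe sets with a mean below the 40th percentile were left out, and log2(signal + 16) of 18625 probe sets went into limma 3.58.1 (R 4.3.3; lmFit, eBayes with trend, 2-sided, Benjamini-Hochberg at 0.05), and intervals are 95%. With 3 arrays per strain the smallest exact permutation p is 0.1, so none is given. The median SE was 0.10, which the number of arrays limits. The fit was tested on simulated data with fold changes larger than those of the tested members, so its power for differences of their size was not tested.

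Of the probe sets, 20826 had 1 symbol, 436 several and 9780 none; symbols were updated by gene ID (20758 matched GRCr8), and 0 member probe sets carry several genes. A listed gene is its brightest probe set. Members, lists and tests were chosen with earlier results of these data known. Named list genes were those at an unadjusted p under 0.05 and, where these were fewer than 3, the 3 with the smallest p. Some list genes with the other direction were named beside them. Over all tested probe sets, same-numbered arrays deviated together with correlations of only 0.037, 0.014 and 0.021, so the main fit was unpaired. Correlations over the whole array cannot tell whether single genes deviated in pairs. Alternatives were other pseudocounts, filters, normalizations, eBayes without trend, left-out arrays and a replicate block.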

Additional observations from a re-analysis of the deposited data

How the results depend on the processing

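Filters, the eBayes trend and the replicate block leave a fold change as it is. Of 132 fold changes of the 12 member probe sets with the other settings, 123 had the same sign, and with any setting 0 passed limma's adjusted threshold (smallest adjusted p 0.279). The 9 that turned all came with 1 or 2 arrays left out. With each array left out in turn, Scnn1a ranged from -0.21 (without S replicate 1) to 0.071 (without S replicate 3), Nr3c2 from -0.19 (without S replicate 1) to 0.084 (without S replicate 2), and Hsd11b2 from -0.17 (without S replicate 1) to 0.017 (without S replicate 3). Nedd4l ranged from -0.055 (without S replicate 3) to 0.0046 (without S replicate 2), and the brighter Fkbp5 set from -0.13 (without S replicate 1) to 0.26 (without S replicate 3). With congenic replicate 2 as the only congenic array, assumed to vary like the S arrays, Scnn1a was at 0.084 and Scnn1b at 0.014. The number of member probe sets at an unadjusted p under 0.05, 2 with all arrays, was 0 (without congenic replicate 2) to 4 (without S replicate 3) with 1 array left out. It was 1 without the eBayes trend and 3 with the replicate number as a block. With the block these were Tsc22d3 (limma unadjusted p = 0.00412), Nr3c1 (limma unadjusted p = 0.0223) and Sgk1 (limma unadjusted p = 0.0388). Tsc22d3 was not under 0.05 without S replicate 1 (limma unadjusted p = 0.0697) or congenic replicate 2 (limma unadjusted p = 0.0827). Nr3c1 was not without S replicate 1 (limma unadjusted p = 0.168), congenic replicate 2, congenic replicate 3 or both congenic replicates 1 and 3, nor without the trend (limma unadjusted p = 0.0803). Without S replicate 1 the single such probe set was Hsd11b2 (limma unadjusted p = 0.0268). The number of all probe sets past the adjusted threshold was 0 to 1, the 1 being without congenic replicate 2. The median over member genes ranged from -0.093 (without S replicate 1) to 0.053 (without S replicate 2). The larger spread among S arrays held for 6 instead of 11 probe sets without S replicate 1, a comparison chosen after the data were seen, like a filter on mean log2 values, which moved no member. The fits with left-out arrays hold fewer arrays; the cause of the other changes was not tested. Dim signals limit the second probe sets of Scnn1a and Nr3c1, which were not tested.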
